A study of Mus musculus with 3 samples.

Results

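Ly6a, Ly6c1, Ly6c2, Ly6d and Ly6e are 5 members of the Ly6 family, and their transcripts were followed through CD4-CD8- double negative (DN) and γδ thymocytes of C57BL/6 mice. The 5 genes were taken by symbol from the 27734 genes listed in all 3 droplet libraries, and every member was listed in each. They were described in 21879 cells that had 500 to 5000 genes and at most 7% mitochondrial counts: 5516, 8852 and 7511 cells of the first, second and the third run. Each run was 1 library from 4 pooled thymi of mice aged 6 weeks by the label, depleted of CD4+ and CD8+ cells and sorted by flow cytometry. The first run held DN and γδ thymocytes, the second DN1 and DN2, and the third DN1, DN2, DN3 and γδ cells, the last mixed after separate sorts. The labels name no mutation and no treatment, and no sort was repeated, so gate and run are the only terms compared. By the study's methods, cells bearing B220, CD11b, CD11c, NK1.1 or TCRβ at the surface were gated out before collection, and TCRγδ-bearing cells too in the second run.

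Ly6 proteins are small, disulfide-rich domains held at the cell surface by a glycosylphosphatidylinositol anchor. Several serve as antigens in flow cytometry: Ly6a is Sca-1, a marker of haematopoietic stem cells and of activated lymphocytes that interferon induces, while Ly6c1 and Ly6c2 together give the Ly-6C antigen of monocytes and memory-type CD8 T cells. Ly6d marks lymphoid progenitors on the way to B cells, and Ly6e is the thymic shared antigen of immature thymocytes.

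In the GRCm38 build all 5 lie on chromosome 15, within 349915 bases from Ly6d to Ly6c2. GENCODE places the protein-coding Ly6d (ENSMUSG00000034634) at chr15:74762056-74763620 on the minus strand and Ly6e (ENSMUSG00000022587) at chr15:74955051-74959905 on the plus strand. Ly6a (ENSMUSG00000075602) follows at chr15:74994877-74998031, Ly6c1 (ENSMUSG00000079018) at chr15:75044018-75048830 and Ly6c2 (ENSMUSG00000022584) at chr15:75108158-75111970, these 3 on the minus strand. Ly6c1 and Ly6c2 are near copies. Their coding sequences matched at 384 of 393 bases (97.7%), against 81.8% for Ly6a with Ly6c1 and 49.8% for Ly6c1 with Ly6e. Over the last 400 bases of the transcript, where 3′ libraries are read, 35 of 311 windows of 90 bases (11.3%) of Ly6c1 also occurred in another Ly6 gene, and the same number did for Ly6c2. The other 3 members shared 0 of 311. A read inside such a window cannot be assigned to 1 gene, so the split of reads between Ly6c1 and Ly6c2 is uncertain to that extent.

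The stretches before the starts of Ly6c1 and Ly6c2 are shown because the coding sequences are so alike while the levels given below went opposite ways. Both are 150 bases from RefSeq (GRCm38.p6), minus strand, ending at the base before the annotated start. Capitals mark the longest run the pair had in common, 20 bases.
Ly6c1, chr15:75048838-75048987: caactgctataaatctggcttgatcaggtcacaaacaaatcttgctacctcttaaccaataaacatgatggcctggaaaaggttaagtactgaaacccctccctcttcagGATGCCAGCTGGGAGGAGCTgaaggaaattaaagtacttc
Ly6c2, chr15:75111972-75112121: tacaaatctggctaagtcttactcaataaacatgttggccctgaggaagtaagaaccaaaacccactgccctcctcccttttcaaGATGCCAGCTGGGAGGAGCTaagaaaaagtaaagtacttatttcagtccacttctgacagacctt
Over windows of 300 bases around the start the pair matched at 208 of 334 aligned positions (62.3%). The shared run holds the E-box CAGCTG, a letter pattern found on either strand in 16.3% of 32851 promoter windows of this length. Other patterns searched on both strands matched in neither window: the E-box CAGGTG (in 20.2% of all windows), the T-box core AGGTGT (13.7%), the STAT site TTCNNNGAA (8.30%) and the interferon-response type GAAANNGAA (8.56%). Of the members, these 2 had an entry in the promoter table.

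Cells were assigned by transcripts to progenitor DN1-like, DN2a-like, DN2b-like and DN3-like gates, to a Trdc gate and to a Trac gate. The Trac gate needed Trac at 2 unique molecular identifiers (UMIs) or more and above Trdc, without Ptcra, Rag1 or Il2ra. The Trdc gate needed Trdc at 3 UMIs or more and above Trac, CD3 transcripts, and no Ptcra, Rag1, Il2ra or Cpa3. Progenitors had Kit, Flt3 or Cd34 without Il2ra, Ptcra or Rag1. DN2a-like and DN2b-like cells had Il2ra with Kit or Cpa3, the former without and the latter with Rag1 or Ptcra. DN3-like cells had Il2ra and Ptcra without Kit or Cpa3, so the Trdc and Trac gates lack by rule what defines them. All are gates by transcript and not surface phenotypes. Levels are UMIs scaled to a common total (CPM) over all cells of a gate, with exact 95% Poisson intervals that cover counting error only. A UMI stands for 1 captured transcript end and needs no length scaling, but how well each gene is captured was not measured. Between progenitor DN1-like and DN3-like cells, 2 stage markers outside the gate rules followed the gate names. Lyl1, a progenitor factor, was 119.4 and 1.03 CPM in these cells of the second run, and Notch3 was 5.72 and 108.5 CPM in those of the third. In the first run progenitors had less Lyl1 than DN2a-like cells (27.2 against 36.0 CPM) and more Notch3 (38.1 against 20.7 CPM). Ccl5, a chemokine, was 0, 68.2 and 204.0 CPM in progenitors of the 3 runs and 16.7, 34.8 and 24.7 CPM in DN2a-like cells, so the progenitor gate was mixed. The second run was labelled as DN1 and DN2 cells, yet 831 of its cells met the DN3-like rule, 532 the Trdc rule and 2050 the Trac rule. Of the last, 1643 had at least 2 of 6 genes (Klrb1c, Klrk1, Klrd1, Klre1, Nkg7 and Il2rb) and are called NK-receptor cells. The first run stood apart at both ends. Its progenitor gate held 33 cells with Bcl11b, a commitment factor, at 495.1 CPM. Its Trac gate held 20 cells, 0 of them with at least 2 of the 6 genes, against 2050 and 1053 Trac cells in the other runs. In its Trdc gate the coreceptor transcript Cd8b1 was at 95.9 CPM, against 3.42 and 17.2 CPM in the second and the third runs, so the results of the Trdc and Trac gates are also given without that run.

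**Figure D1:**
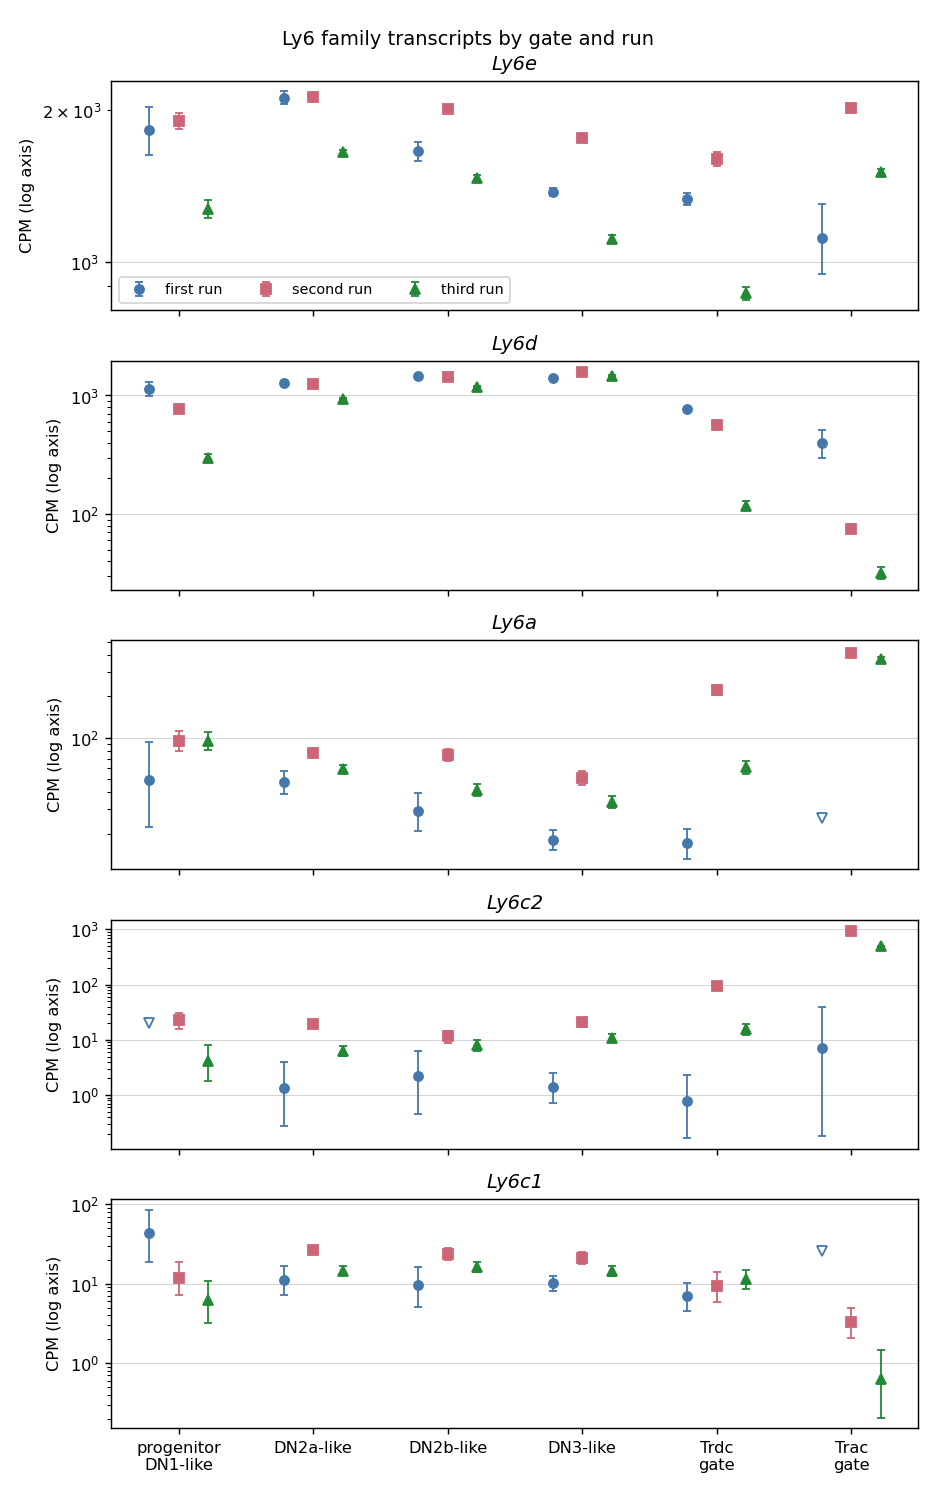
CPM on a log axis (vertical) of each member in the 6 main gates (horizontal) by run, with exact 95% Poisson intervals; an open triangle is the upper limit where 0 UMIs were counted. Ly6e stayed between 869.2 and 2126 CPM in all gates, Ly6d was lowest in the Trac gate of the second and the third runs, and Ly6a and Ly6c2 were highest there.

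Ly6e was the leading member. It took the most UMIs of the 5 in 16 of 18 pairs of gate and run, and Ly6d led in the other 2, the DN3-like cells of the first and the third runs. Ly6e peaked in DN2a-like cells in each run, at 2116, 2126 and 1649 CPM. It was 1377, 1762 and 1112 CPM in DN3-like cells and 1333, 1600 and 869.2 CPM in the Trdc gate. The Trac gate held 1115, 2015 and 1506 CPM. The ranges of gates overlap across runs, because the third run lay below the second in every gate. Ly6e was also the most widely detected, with a UMI in 92.1% to 100% of the cells of every gate except the 20 Trac cells of the first run (80.0%).

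Ly6d was the second DN transcript. In CPM of the first, second and the third runs it was 1143, 769.8 and 298.2 in progenitor DN1-like cells, 1279, 1243 and 936.3 in DN2a-like cells, 1452, 1421 and 1180 in DN2b-like cells and 1405, 1577 and 1465 in DN3-like cells. The progenitor value differed most between runs, and DN3-like values least. As a share of the UMIs of all 5 members, Ly6d made up 37.4%, 27.5% and 17.8% in progenitors and 49.96%, 45.9% and 55.6% in DN3-like cells. Ly6a had the opposite order along the DN stages, except at the last step of the first run, where Ly6d was lower too. Ly6a went from 49.0, 95.1 and 94.7 CPM in progenitors to 47.3, 77.8 and 59.4 CPM in DN2a-like, 29.2, 75.1 and 41.7 CPM in DN2b-like and 18.0, 50.8 and 34.0 CPM in DN3-like cells. It was lower at each step in each run. The counting interval of the log2 ratio included 0 from progenitors to DN2a-like cells in the first run (-0.051) and from DN2a-like to DN2b-like cells in the second (-0.050).

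No single DN step passed the test for any member. UMIs summed per gate and run were compared in edgeR's quasi-likelihood test with run as a block, with Benjamini-Hochberg adjustment over 11172 genes. Of DN2a-like against progenitor DN1-like cells, 0 of 5 members passed, beside 1.80% of all genes. Ly6d had the largest log2 fold change, 0.87 ± 0.44 (SE, 3 runs against 3, edgeR adjusted p = 0.453), and its unadjusted p was 0.0672. With stage genes required at 2 UMIs Ly6d did pass (log2 fold change 1.65, edgeR adjusted p = 0.0267). Under that rule the first run's progenitor gate held 2 cells, too few to enter the fit, so a library was lost too. In the main gates the first run had the smallest log2 ratio of Ly6d at this step (0.16, against 0.69 and 1.65). Leaving out the first run with the main gates gave 0 of 5 members, beside 6.67% of all genes. Of DN2b-like against DN2a-like cells 0 of 5 passed, beside 0.367% of all genes, and of DN3-like against DN2b-like cells 0 of 5 passed, beside 0.501%. Ly6a had log2 fold changes of -0.45 ± 0.47 and -0.42 ± 0.46 at these steps, both within 1 SE of 0. No member had an unadjusted p under 0.05 at any of the 3 steps in this fit, while DESeq2 also called 0 members at each. Refitted with only the 2 gates of each step, 1, 2 and 2 members passed, beside 6.58%, 6.47% and 4.35% of all genes. At the first step 2 members passed with stage genes required at 2 UMIs. After thinning to 2000 UMIs, with the gates set again on the thinned counts, 1 passed. Of all genes, 6.69% and 1.11% were called under those settings.

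**Figure D2:**
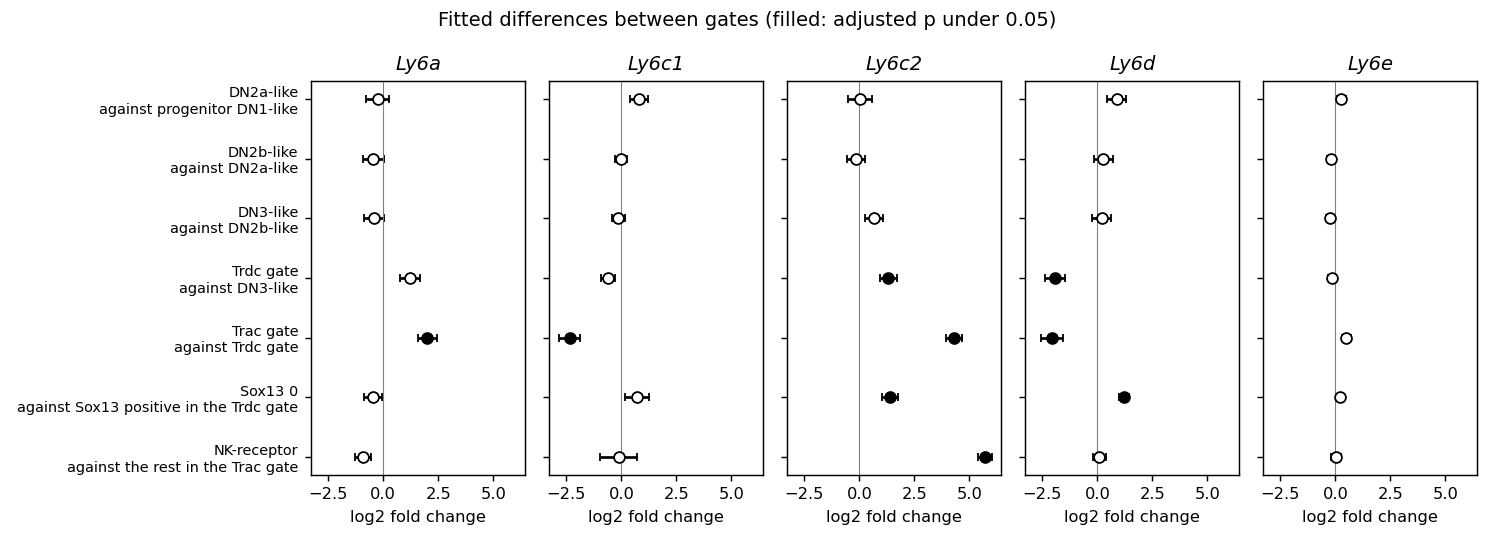
Fitted log2 fold change (horizontal) with its SE for each member in the 7 comparisons of gates (vertical), from edgeR with run as a block; filled points passed the adjusted p of 0.05. The filled points lie in the Trdc, Trac and sub-gate comparisons, the farthest being Ly6c2 at 5.72 between NK-receptor Trac cells and the rest.

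Among DN3-like cells, Ly6d depended on the scale. Cells with Mki67 or Top2a, genes of cycling cells, were set against those without. Resting cells held 2307, 2125 and 1843 CPM and cycling cells 1033, 1227 and 1235 CPM in the 3 runs, a log2 ratio of 1.16, 0.79 and 0.58. The groups did not overlap in CPM. Per cell, with depth left unequal, the order was the reverse: resting cells had a mean of 9.46, 10.5 and 13.9 Ly6d UMIs and cycling cells 11.0, 11.7 and 15.2. Cycling cells carried more UMIs in all, with medians of 9852, 9079 and 9720 UMIs against 3320.5, 4606 and 7119 UMIs in the same order of runs. A cell counted as cycling at 1 UMI of either gene, which deeper cells meet more readily, so the split depends on depth. Thinned to 2000 UMIs a cell, resting cells had a mean of 4.97 and 4.51 Ly6d UMIs in the first and second runs. Cycling cells had 2.44 and 2.90. Ly6d thus took a larger share of a smaller pool of captured UMIs in resting cells, and no test of this difference was run. Ly6e had log2 ratios of 0.13, -0.06 and -0.15.

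**Figure D3:**
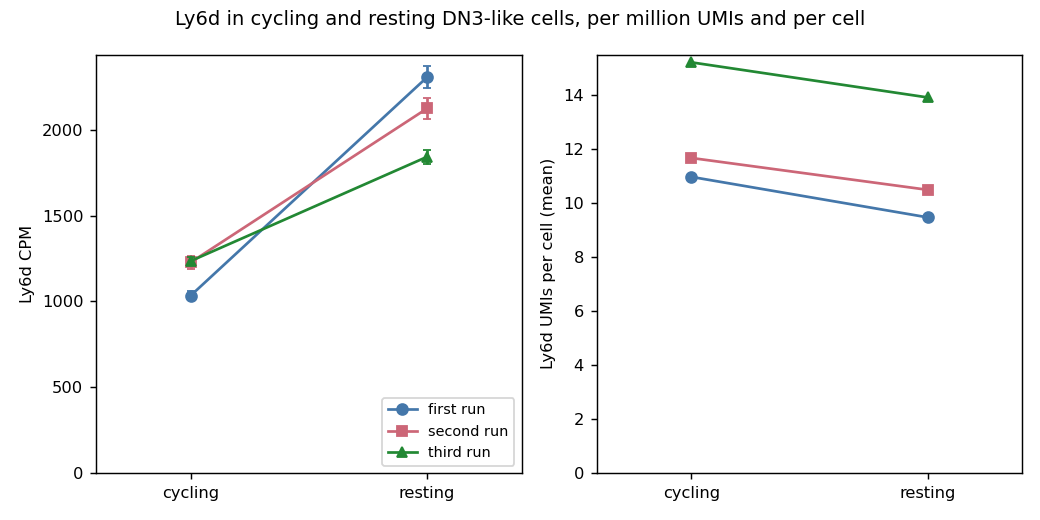
Ly6d in cycling and resting DN3-like cells (horizontal) of each run, as CPM with exact 95% Poisson intervals (left) and as mean UMIs per cell (right). CPM was higher in resting cells and UMIs per cell, at unequal depth, were lower, in all 3 runs.

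DN4-like cells, with Ptcra (the pre-TCR α chain) but no Il2ra, were described in the first run, the one sorted for this stage. The 1211 cells held 892.6 CPM of Ly6d and 1320 CPM of Ly6e. Cells with a coreceptor transcript had 818.9 CPM of Ly6d and the others 1007 CPM. Ly6a was 11.1 CPM there and Ly6c2 had 0 UMIs of 10660461, which allows up to 0.281 CPM at 3 UMIs, the limit used in the text for a count of 0 (the plots draw the exact interval's upper end).

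The Trdc gate was set against the DN3-like cells. In the second run it was read in a library sorted without TCRγδ-bearing cells. Ly6d was 772.3, 563.0 and 118.0 CPM in the Trdc gate of the 3 runs against 1405, 1577 and 1465 CPM in DN3-like cells, with no overlap. It fell by 1.93 ± 0.45 on the log2 scale (edgeR adjusted p = 0.00584, lower in 3 of 3 runs). Ly6c2 rose, with a log2 fold change of 1.32 ± 0.39 (edgeR adjusted p = 0.0235). These made 2 of 5 members called, beside 18.3% of all genes. The rise of Ly6c2 rested on the second run, where it was 94.1 against 21.0 CPM, while the third run gave 15.6 against 10.8 CPM and the first 0.797 against 1.43 CPM. Without the second run it did not pass (0.27, adjusted p = 0.897), nor without the third (1.68, adjusted p = 0.167). DESeq2 did not call it (0.97, adjusted p = 0.321). Without the first run it passed (1.499, adjusted p = 0.00367), as did Ly6d (-2.46, adjusted p = 0.000285). Ly6d missed the threshold without the second run (-2.24, adjusted p = 0.0630) or the third (-1.18, adjusted p = 0.152).

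Ly6a was 17.0, 223.6 and 60.8 CPM in the Trdc gate and 18.0, 50.8 and 34.0 CPM in DN3-like cells. The counting intervals overlapped in the first run and the Trdc value was higher in the others, with a log2 fold change of 1.22 ± 0.45 (edgeR adjusted p = 0.0692). Without the first run the log2 fold change was 1.60 (adjusted p = 0.00106) and 3 members passed, beside 33% of all genes. Thinned to 2000 UMIs a cell, 20.3% of Trdc cells of the second run and 7.92% of the third had a Ly6a UMI, against 6.98% and 6.22% of DN3-like cells. Ly6c1 was 6.91, 9.41 and 11.3 CPM in the Trdc gate and 10.1, 21.0 and 14.5 CPM in DN3-like cells, lower in each run but not past the threshold (-0.62 ± 0.31, adjusted p = 0.206).

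Sox13, a factor of IL-17-type γδ cells, was used to divide the Trdc gate. Ly6d was 828.2, 644.6 and 158.7 CPM in cells without a Sox13 UMI and 378.5, 258.8 and 73.9 CPM in cells with one. It was higher in the former in 3 of 3 runs, with a log2 fold change of 1.22 ± 0.23 (edgeR adjusted p = 0.00483) over 10116 genes. Ly6c2 was 0.910, 111.1 and 19.1 CPM against 0, 30.3 and 11.8 CPM (log2 fold change 1.41 ± 0.36, adjusted p = 0.0341). The 0 of the first run allows up to 6.42 CPM, above the 0.910 CPM (3 UMIs) it is set against. In the third run the counting interval of the log2 ratio included 0 (-0.002 to 1.421). Without the first run Ly6d gave 1.22 (adjusted p = 0.00404). The Ly6c2 call was lost with Trdc at 10 UMIs or more (0.75, adjusted p = 0.560), without the first run (1.43, adjusted p = 0.0531) and without the second (0.67, adjusted p = 0.678). Thus 2 of 5 members were called, beside 3.63% of all genes. In the same direction, Cd8b1 was 105.0 CPM in Sox13 0 cells of the first run and 32.1 CPM in Sox13 positive cells. In the second run Cd8b1 was 3.25 and 4.04 CPM in these sets, and the log2 ratio of Ly6d was 1.32. In the third run Cd8b1 was 25.3 and 8.40 CPM, with a Ly6d log2 ratio of 1.10. The part of cells with Cd8b1 in the Ly6d difference was not tested.

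A further division of the Trdc gate, chosen after values were seen, used Icos, a costimulatory receptor, and Il2rb, the IL-2 and IL-15 receptor β chain. In the second run Ly6a was 366.7 CPM in 89 Icos positive cells, 240.1 CPM in 65 Il2rb positive cells without Icos and 191.3 CPM in 378 cells with neither. Ly6c2 was 174.6, 317.0 and 36.2 CPM in these sets, and Ly6d 75.7, 185.7 and 732.5 CPM. In the third run the order of Ly6a was the same at 136.2, 58.9 and 33.0 CPM, that of Ly6c2 was 21.4, 25.4 and 8.89 CPM, and that of Ly6d was 107.0, 27.8 and 162.9 CPM. Cells with neither transcript thus had the highest Ly6d and the lowest Ly6a and Ly6c2 in these runs. The first run did not show that order for Ly6a, with 13.8 CPM in 481 cells with neither and 10.6 CPM (1 UMI) in 23 Il2rb positive cells.

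The Trac gate was set against the Trdc gate. Here 4 of 5 members were called, beside 26.8% of all genes. Ly6c2 was 947.9 and 493.1 CPM in the later 2 runs against 94.1 and 15.6 CPM in their Trdc gates, while the first run had 1 UMI in its 20 Trac cells. Its log2 fold change was 4.31 ± 0.38 (edgeR adjusted p = 7.307e-07). Ly6a was 416.0 and 374.4 CPM against 223.6 and 60.8 CPM, and 0 UMIs in the first run, which allows up to 21.2 CPM and so overlaps the 17.0 CPM of its Trdc gate. The fit gave 2.01 ± 0.45 (adjusted p = 0.00350). Ly6d fell by 2.06 ± 0.50 (adjusted p = 0.00640), being 395.1, 75.4 and 31.9 CPM in the Trac gate. Ly6c1 fell by 2.36 ± 0.48 (adjusted p = 0.00185), with 0, 22 and 5 UMIs in the Trac gates, or 0, 3.26 and 0.626 CPM. The 0 of the first run again allows up to 21.2 CPM, above the 6.91 CPM of its Trdc gate, so that run shows no fall. The near copies Ly6c1 and Ly6c2 were therefore called in opposite directions.

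Ly6e did not pass in this comparison (0.50 ± 0.19, adjusted p = 0.0642). It was lower in the Trac gate of the first run and higher in that of the others. Without the first run all 5 members passed, beside 32.4% of all genes. Ly6e then stood at 0.77 (adjusted p = 5.697e-05), Ly6a at 1.89, Ly6c2 at 4.23, Ly6d at -2.30 and Ly6c1 at -2.41. Without the third run 2 members passed, beside 5.62% of all genes, and Ly6a (1.37, adjusted p = 0.250) and Ly6c1 (-1.47, adjusted p = 0.188) were lost. Without the second run Ly6d was lost (-1.57, adjusted p = 0.243). DESeq2 did not call Ly6a (1.70, adjusted p = 0.0968) and did call Ly6e (0.51, adjusted p = 0.0487).

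**Figure D4:**
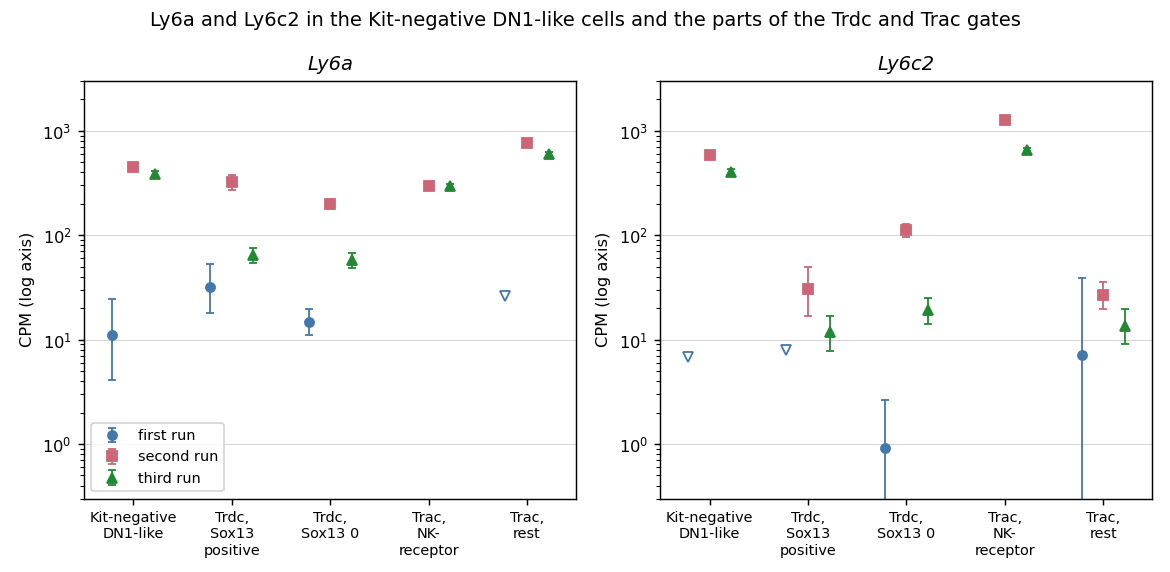
CPM (log axis, vertical) of Ly6a and Ly6c2 in Kit-negative DN1-like cells and in the sub-gates of the Trdc and Trac gates (horizontal), by run, with exact 95% Poisson intervals; open triangles are upper limits at 0 UMIs. Ly6c2 was 1264 and 659.3 CPM in NK-receptor Trac cells and 26.7 and 13.6 CPM in the rest, whereas Ly6a was higher in the rest.

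Within the Trac gate Ly6c2 and Ly6a had opposite orders between NK-receptor cells and the rest, and only the Ly6c2 difference was called. The name NK-receptor gives the rule of at least 2 of 6 genes, which include Nkg7 and the cytokine receptor chain Il2rb. Cells with fewer than 2 of them fell among the rest. NK-receptor cells numbered 1643 in the second run and 856 in the third. They also held Ccl5, a chemokine of cytotoxic cells, at 1133 and 554.7 CPM. The rest, 407 and 197 cells, held Icos at 791.5 and 1000 CPM and Il17re, a receptor of IL-17-type cells, at 169.7 and 95.4 CPM. Ly6c2 was 1264 and 659.3 CPM in NK-receptor cells and 26.7 and 13.6 CPM in the rest, with no overlap. Its log2 fold change was 5.72 ± 0.30 (edgeR adjusted p = 3.033e-10, 2 runs against 3, higher in 2 of 2 runs with both). Without the first run it gave 5.74 (adjusted p = 3.527e-08). It was the 1 member of 5 called, beside 11.6% of all genes.

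Ly6a was the reverse, at 298.9 and 296.6 CPM in NK-receptor cells and 757.8 and 598.9 CPM in the rest. The groups of the second and the third runs did not overlap, but the rest of the first run, 20 cells with 0 Ly6a UMIs, entered the fit too, and Ly6a did not pass (-0.92 ± 0.37, adjusted p = 0.130). With at least 50 cells required, which drops those 20 cells, it passed (-1.03, adjusted p = 0.0291). Without the first run altogether the adjusted p was 0.0592. Ly6e gave 0.01 ± 0.22 and Ly6d 0.08 ± 0.29, both within 1 SE of 0. Within the second and the third runs Ly6e was lower in NK-receptor cells, 1887 against 2387 CPM and 1425 against 1739 CPM, log2 ratios of -0.34 and -0.29 whose counting intervals exclude 0.

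Shares of cells at equal depth gave the same picture. After thinning to 2000 UMIs, 67.8% of NK-receptor Trac cells in the second run had a Ly6c2 UMI (95% Clopper-Pearson interval 65.5% to 70.1%) and 49.6% in the third, against 3.44% and 2.54% of the rest. Before thinning these were 71.1% and 60.9% against 6.39% and 7.11%, at median depths of 2715 and 5844 UMIs against 3901 and 9306. DN3-like cells stood at 3.01% and 1.49% after thinning, no higher than the rest of the Trac gate. In DN3-like cells Ly6c2 was 21.0 and 10.8 CPM and Ccl5 was 31.2 and 39.8 CPM, and over all cells of these runs they were 188.2 and 91.2 CPM for Ly6c2 and 186.5 and 112.3 CPM for Ccl5. Ly6a was found in 32.8% and 30.6% of NK-receptor cells and in 57.7% and 53.8% of the rest. In NK-receptor cells both transcripts were found in 20.3% and 12.0%, below the products of the separate shares, 22.2% and 15.2%.

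Kit-negative DN1-like cells, with Il7r or Cd44 but without Kit, Flt3, Cd34 or the DN2 and DN3 genes, resembled the Trac gate in their Ly6 transcripts. This gate took cells left by the other gates, so cells below the Trac limit of 2 UMIs could enter it. In the second and the third runs it held Cd3e at 843.3 and 517.3 CPM, against 236.4 and 227.9 CPM in progenitor DN1-like cells. Lyl1 was 1.67 and 0.437 CPM, against 119.4 and 54.6 CPM. The name thus gives the rule and not a stage. In the second and the third runs Ly6a was 452.9 and 388.1 CPM and Ly6c2 586.4 and 404.2 CPM, against 95.1 and 94.7 CPM and 22.5 and 4.16 CPM in progenitor DN1-like cells. Ly6d was lower, 243.6 and 105.2 CPM against 769.8 and 298.2 CPM. Those 355 and 317 cells also held Ccl5 at 803.3 and 634.2 CPM and Icos at 455.4 and 587.5 CPM, transcripts of the Trac gate, and their part in the Ly6 levels was not tested. The 78 cells of the first run had Ly6a at 11.1 CPM, 0 UMIs of Ly6c2 (up to 5.57 CPM) and Ccl5 at 1.86 CPM. This pair of gates was not tested across runs.

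Cells with a Ly6a UMI held a higher summed level of interferon-response genes than cells without one. A list of 22 such genes, of which 21 were listed in all runs and none is a member, was summed in cells thinned to 2000 UMIs. In NK-receptor Trac cells of the second run the sum was 2617 CPM (95% interval 2521 to 2715) in 539 cells with a Ly6a UMI and 1496 CPM (1445 to 1548) in 1104 without. In the third run it was 3239 against 1919 CPM. In the Trdc gate it was 1222 against 738.2 CPM and 2250 against 915.0 CPM. In the DN3-like, Trdc and Kit-negative DN1-like gates and both parts of the Trac gate, 11 sets of gate and run had at least 20 cells with and 20 without a Ly6a UMI. The sum was higher with Ly6a in all 11, and the intervals were apart in 10. Split by Ly6c2 in the same gates, it was higher in 5 of 6 sets and apart in 3, and in NK-receptor cells of the second run it was 1848 against 1897 CPM. Over the undivided Trac gate the split by Ly6c2 gave 1868 against 1684 CPM and 2514 against 1834 CPM, and in cells with B-cell markers of the third run it gave 4208 against 1723 CPM, beside 3413 against 1199 CPM for Ly6a. Cells of 1 library are not replicates, so these are descriptions with counting error and carry no test. Each sum pools cells and genes, so single genes and subsets within a gate were not told apart.

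**Figure D5:**
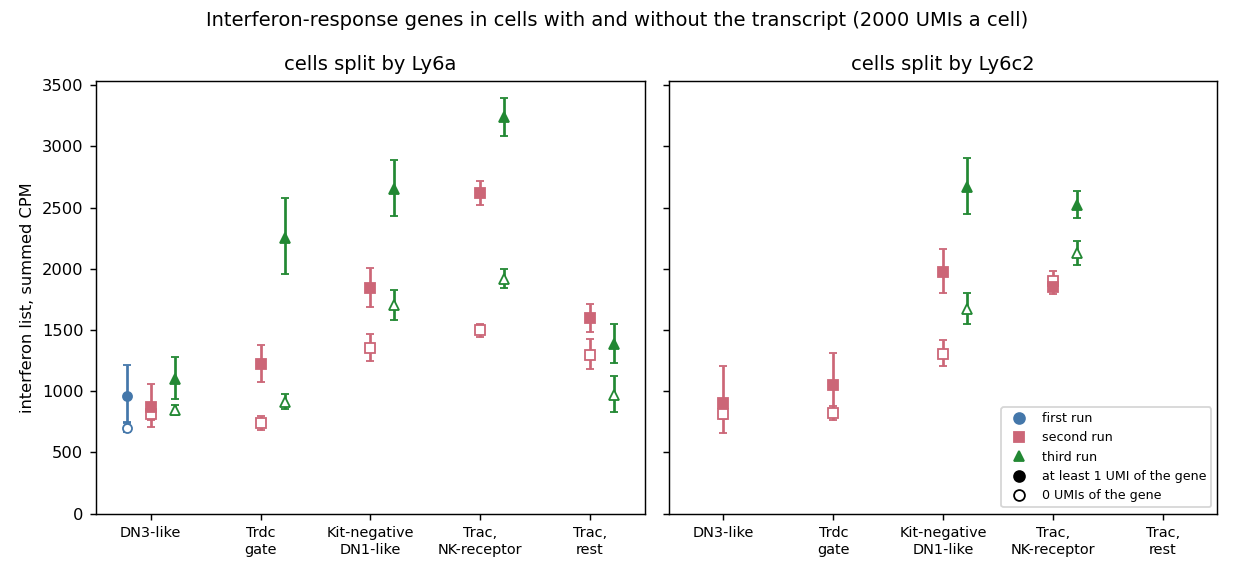
Summed CPM of the interferon-response list (vertical) in cells with (filled) and without (open) a UMI of Ly6a (left) or Ly6c2 (right), by gate (horizontal) and run, at 2000 UMIs a cell, with exact 95% Poisson intervals. Filled points lie above open ones in all 11 sets for Ly6a and in 5 of 6 for Ly6c2.

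Genes of the interferon list were also counted between gates. In the Trdc gate against DN3-like cells, 6 of its 21 tested genes rose and 1 fell, beside 18.3% of all genes called, with a median log2 fold change of 0.28 against -0.01 over all genes. Ifit3b (3.03 ± 0.72, from 0.259, 0.172 and 0.167 CPM, near the floor), Ifi27l2a (2.11 ± 0.36) and Usp18 (1.43 ± 0.29) were the largest with the same sign in every run. In the Trac gate against the Trdc gate 16 rose and 0 fell, beside 26.8% of all genes, with a median of 1.12 against 0.02, among them Isg20 (1.71 ± 0.23), Irf7 (1.45 ± 0.30), the master regulator of type I interferon, and Oasl2 (1.31 ± 0.30). In NK-receptor Trac cells against the rest 7 rose and 0 fell, beside 11.6% of all genes, led by Ifit3 (2.89 ± 0.44), although Ly6a had the opposite sign there. Between the Sox13 sets, beside 3.63% of all genes, 2 rose, Ifi27l2a (1.66 ± 0.31) and Bst2 (0.63 ± 0.16), and Usp18 fell by 1.43 ± 0.32. DESeq2 called 5 genes of the list for the Trdc gate, 14 for the Trac gate, 2 for NK-receptor cells and 3 for the Sox13 sets. At the 3 DN steps 0 of 21 passed in edgeR and in DESeq2, and 1, 2 and 0 had an unadjusted p under 0.05 in edgeR.

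Of 28 further Ly6/uPAR relatives, 24 were listed in all runs. Of those, 7 were abundant enough to test in the gates and 3 in the sub-gates. Ly6g5b rose from 1.43, 2.24 and 2.002 CPM in DN3-like cells to 3.19, 28.2 and 12.3 CPM in the Trdc gate (2.74 ± 0.32) and to 14.1, 89.0 and 72.5 CPM in the Trac gate (2.44 ± 0.25 over Trdc). It was lower in NK-receptor Trac cells than in the rest, by 1.09 ± 0.20 on the log2 scale, the 1 relative called there, beside 11.6% of all genes. The complement regulators Cd59a and Cd59b fell by 2.28 ± 0.37 and 2.77 ± 0.54 in the Trdc gate against DN3-like cells. Both were low: Cd59a was 1.86, 7.27 and 1.82 CPM in the Trdc gate against 10.5, 19.5 and 15.9 CPM. Cd59b was 1.59, 2.565 and 0.202 CPM, near the floor, against 5.19, 9.475 and 10.8 CPM. In that comparison 2 rose and 4 fell, beside 18.3% of all genes called. In the Trac gate against the Trdc gate 1 rose and 4 fell, beside 26.8% of all genes. Between the Sox13 sets 0 of 3 passed in edgeR or DESeq2 (0 at an unadjusted p under 0.05), beside 3.63% of all genes in edgeR. At the DN steps 1 fell, from progenitors to DN2a-like cells, beside 1.80% of all genes there. DESeq2 called 6 relatives for the Trdc gate, 3 for the Trac gate, 0 for NK-receptor cells and 1 for DN2a-like cells.

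Of 12 maturation and memory-type genes, 9 were not gate genes and were tested. From DN3-like cells to the Trdc gate 5 rose and 0 fell, beside 18.3% of all genes called. Among the 5 were Klf2 (3.24 ± 0.35), a factor of thymic egress, and its target S1pr1 (4.27 ± 0.49). From the Trdc to the Trac gate 2 rose and 2 fell, beside 26.8% of all genes. In NK-receptor Trac cells against the rest 6 rose and 0 fell, beside 11.6% of all genes. Among the 6 were Tbx21 (4.59 ± 0.32), Cxcr3 (3.55 ± 0.20) and Bcl2 (2.79 ± 0.43), and Ly6c2 was higher there too. Between the Sox13 sets 1 rose and 2 fell, beside 3.63% of all genes. Among those that fell was Ifngr1, a chain of the interferon-γ receptor, by 0.76 ± 0.19. DESeq2 called 0 of 9 between the Sox13 sets and 3 of 9 between NK-receptor cells and the rest. At the 3 DN steps 0 of 9 passed in edgeR and in DESeq2, and 5, 2 and 3 had an unadjusted p under 0.05 in edgeR.

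The genes most like each member were ranked by Pearson's r of log2(CPM + 1), centred within each run, over 18 pairs of gate and run, which share 3 libraries. Among 5713 genes at a mean of 20 CPM or more, Ly6d was closest to Prss57 (r = 0.987), Arpp21 (r = 0.986) and Spint2 (r = 0.980). Ly6a was closest to Dennd4a (r = 0.955), Inpp5d (r = 0.952) and Selplg (r = 0.950), and Ly6c2 to Bcl2a1b (r = 0.952) and Capg (r = 0.945). Ly6e had less close neighbours in Serinc3 (r = 0.893), Ctla2a (r = 0.870) and Il17rb (r = 0.855). Ly6c1, at a mean of 13.5 CPM, was below the limit and was not ranked. These values describe the gates and carry no p.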

How the data were processed

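Single thymocytes were profiled on the 10x Chromium platform (kit V2 or V3.1). The deposited matrices hold raw UMI counts per gene and cell that the authors made with Cell Ranger and the mm10 build; the matrix header of the third run names Cell Ranger 4.0.0, while the kit of each run and the version behind the other matrices are not given in the sources used here. The submitters' processing notes also name R 3.6.3 and Seurat 2.3. Totals were 39947415, 52797915 and 98533329 UMIs in 5527, 8887 and 8869 barcodes, with 72, 3 and 0 barcode sequences shared by the first and second, the first and the third, and the second and the third libraries.

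The filter and gates followed fixed UMI rules (positive at 1 UMI or more; cells with 2 markers of B, plasmacytoid dendritic, myeloid, erythroid, or of stromal or epithelial cells were set aside), and no clusters were made. Doublets were not removed: Scrublet called 0%, 4.73% and 2.86%, so its calls were not used, and the 10% of cells with the highest scores were left out as an alternative. The stromal or epithelial gate held cells with T-lineage transcripts such as Cd3e and was dropped as another alternative. Counts summed per gate and run, with at least 20 cells, were fitted in edgeR 4.0.16 (TMM, filterByExpr, quasi-likelihood F test, two-sided) with run as a block, leaving out 54 gate genes; DESeq2 1.42.0 was an alternative. Of the fits, the edgeR fit of the main gates was tested on simulated counts, for the Trac against the Trdc gate only. The simulated counts had no run effect and a common dispersion. Gates of 1 run come from 1 library. With run as a block, p-values rest on how differences between gates vary over the 3 runs, pooled over the gates of a fit. The runs also differ in sort, and which of them differ in kit is not given. Each p given as "adjusted p" is from edgeR unless DESeq2 is named. The SE of an edgeR log2 fold change was derived as its absolute value divided by the square root of its F statistic.

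The members, the 3 gene lists and the gates were chosen with earlier results of these data known. Genes named were the 5 members, up to 3 called genes per list and comparison with the largest absolute log2 fold change and the same sign in every run, and the 3 genes closest to each member; Cd3e, Cd8b1, Lyl1, Notch3, Bcl11b, Ccl5, Icos, Il17re and Il2rb are named as checks of gates, chosen after their values were seen. Some genes that this rule names are not reported here.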

Additional observations from a re-analysis of the deposited data

Results flagged for a closer look

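Runs moved in opposite directions, each beyond its counting interval, in 8 cases, and the difference between runs was not tested in any of them. Ly6c1 in DN2a-like against progenitor DN1-like cells had log2 ratios of -1.95, 1.15 and 1.23 in order of runs, with 8 UMIs in the 33 progenitors of the first. Ly6e in the Trac against the Trdc gate had -0.26, 0.33 and 0.79. Ly6e in Sox13 0 against Sox13 positive Trdc cells had 0.33, 0.25 and -0.10, the third run being the odd one. Ly6e in resting against cycling DN3-like cells had 0.13 in the first run and -0.15 in the third. In DN4-like against DN3-like cells Ly6a had -0.70, 0.53 and 0.95. Ly6c2 had 2.13 in the second run and 1.73 in the third. In the first run the DN4-like cells held 0 Ly6c2 UMIs and the DN3-like cells 11. That gave -2.34 with 3 UMIs in place of 0, with an upper 95% limit of -1.795. Those 11 UMIs came from 3 of 1063 cells, and the counting interval takes no account of such clumping. The second and the third runs were not sorted for DN4 cells. In Kit-negative against progenitor DN1-like cells Ly6a had -2.14, 2.25 and 2.04 and Ly6e -0.50, 0.16 and 0.25.

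Gates that no comparison used held higher levels than any main gate of their run. Ly6a was 1401 CPM and Ly6c2 3574 CPM in 24 cells with B-cell markers in the second run, where 1 cell gave 24.6% of the Ly6c2 UMIs (2932 CPM without it). In the third run 538 such cells held Ly6a at 641.8 CPM and Ly6d at 1781 CPM; they also held Bcl11b at 310.0 CPM, so the gate is not made of B cells alone. In 10 cells with plasmacytoid dendritic markers of the third run Ly6c2 was 814.8 CPM, Ly6d 5296 CPM and Ly6e 2258 CPM, with all 10 cells having a Ly6d UMI. Of these Ly6c2 UMIs 46.9% came from 1 cell, and without it the level was 464.6 CPM, below the 493.1 CPM of the Trac gate.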

How the results depend on the processing

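No member's log2 fold change reversed where it or its alternative passed the threshold. Of 522 values under alternatives, 469 kept their side of the threshold, 26 lost a call and 27 gained one. The 469 include values that passed in neither fit. In the main fit 0, 0, 0, 2, 4, 2 and 1 of 5 members passed in the 7 comparisons. Without the run block 0 members passed in the Trdc against DN3-like, Trac against Trdc, Sox13 and NK-receptor comparisons, which had 2, 4, 2 and 1. Of all genes, 1.73%, 1.25%, 0% and 0% were called there. With only the 2 groups compared in the fit, 1, 2, 2, 0 and 3 members passed in place of 0, 0, 0, 2 and 1. These were the DN2a-like, DN2b-like, DN3-like, Trdc and NK-receptor comparisons, where 6.58%, 6.47%, 4.35%, 7% and 21.5% of all genes were called. Stricter gates gave 2 in the DN2a-like, 3 in the Trdc, 5 in the Trac, 1 in the Sox13 and 2 in the NK-receptor comparison. These gates called 6.69%, 21.1%, 26.9%, 5.45% and 12.6% of all genes there. They also left the first run's progenitor, DN2b-like and Trac gates with 2, 14 and 11 cells, too few to enter the fit. Thinning to 2000 UMIs gave 1 in the DN2a-like, 3 in the Trdc, 5 in the Trac, 3 in the Sox13 and 2 in the NK-receptor comparison. In these fits the gates were set again on the thinned counts, so their cells differed from those of the main gates. The first run's Trac gate then held 13 cells, too few to enter the fit. Of all genes, 1.11%, 16.6%, 25.4%, 3.3% and 9.53% were called there. Ly6d led 5 of 18 pairs after thinning, rather than 2. DESeq2 gave 1 in the Trdc and 1 in the Sox13 comparison, beside 16.6% and 3.65% of all genes. Trdc at 10 UMIs or more gave 5 in the Trac and 1 in the Sox13 comparison, beside 25.4% and 1.91%. That rule and dropping the stromal gate were chosen after seeing the data. No filter on low counts gave 3 in the Trdc and 2 in the NK-receptor comparison, beside 12.2% and 9.57%. At least 50 cells gave 3 in the Trdc, 5 in the Trac and 2 in the NK-receptor comparison, beside 20.6%, 33.8% and 13.3%. Without 1 run, 0 to 3 members passed in the Trdc, 2 to 5 in the Trac and 1 to 2 in the Sox13 comparison. Of all genes, 2.37% to 33%, 5.05% to 32.4% and 0.619% to 3.03% were called there. Without the first run the NK-receptor comparison gave 1 member, beside 13.5%. At the DN steps 0 members passed when a run was left out, beside 0% to 6.67%. The cause was not tested in these cases. Where leaving out a run left 1 NK-receptor library, that library was assumed to vary like the others. Run was the block in every fit except the one without it, and the labels carry no other replicate number.

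The genes called over the whole table ranged with the settings from 0 to 776 (201 as reported) in the DN2a-like, 0 to 692 (41) in the DN2b-like, 0 to 453 (56) in the DN3-like, 193 to 3833 (2044) in the Trdc, 140 to 3924 (2999) in the Trac, 0 to 657 (367) in the Sox13 and 0 to 2003 (1176) in the NK-receptor comparison. Of 630 CPM values under other gates or filters 168 left their Poisson interval. With 1 library per sort, sort, animals and any difference in kit cannot be told apart, and few cells in the first run's progenitor and Trac gates limit those values. Gate with the highest share was Trac for Ly6a and Ly6c2 in the second and the third runs whether cells were thinned to 2000 or 1000 UMIs.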

Other observations

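Ly6 transcripts differed in how evenly they were spread over the cells of a gate. In DN3-like cells of the third run the 10% of cells richest in Ly6d gave 24.9% of its UMIs, and 98.0% of cells had at least 1. In the Trdc gate of the same run the richest 10% gave 82.2% and 27.8% of cells had at least 1, so the lower Ly6d there was unevenly shared. In NK-receptor Trac cells of the second run the richest 10% gave 33.1% of Ly6c2 UMIs, with a median of 5 UMIs among the cells that had any, while in DN3-like cells of that run 1 cell gave 10.7% of them.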
